A study of Mus musculus with 6 samples.

Results

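Integrated epithelial cluster 8 was 1 of the 2 groups of basal cells that the study recovered from uteri of mice exposed to diethylstilbestrol (DES) as newborns. Its members were the cells of the DES library with the number 8 in the integrated clustering of epithelial cells and a column in the count table. There were 351 such cells among 5255 annotated epithelial cells and 16312 cells of the DES library, and among 48699 cells of both libraries. No cell of the CO library carried this number. The cluster was described beside basal cluster 11 of the same clustering (257 DES cells) and beside 4603 non-basal epithelial cells, those that were numbered when DES epithelium was clustered on its own and that lay in neither basal cluster. The authors had taken cells with more than 1 count each of Krt14 and Trp63 out of that clustering, so that low levels of these 2 genes in the non-basal cells follow from how they were selected. Of cluster 8, 263 cells met that rule, and of cluster 11, 209, but only 4 and 1 carried a number in that clustering. Most basal cells that did not meet the rule were thus absent from it as well.

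All animals were CD-1 mice aged 12 months, dosed on days 1 to 5 of life. The CO group received corn oil and the DES group 1 mg/kg/day of this synthetic estrogen. The uteri of 4 DES mice were pooled into 1 single-cell library and those of 2 CO mice into another, and no source used here assigns cells to mice. Uterine horns were digested with trypsin, first cold and then warm, before the cells were captured. Frozen sections, 2 from CO and 2 from DES uteri and each from a different mouse, were measured without digestion as spatial spots that can each hold several cells.

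Basal cells are the layer of a stratified epithelium that rests on the basement membrane. They carry keratins 5 and 14, are anchored by hemidesmosomes and depend on the transcription factor p63. The adult mouse uterus normally has a simple columnar epithelium, and neonatal estrogen exposure is known to bring basal and squamous cells into it. Immediate early genes are transcribed within minutes of a stimulus such as a growth factor, a cytokine or stress, without new protein synthesis. Many of them encode subunits of the AP-1 factor (the Fos and Jun families) or inhibitors that end the response (Dusp1, Zfp36, Socs3).

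Cluster 8 held 6748008 unique molecular identifiers (UMIs, one per captured RNA molecule), and its median cell had 17129 UMIs and 3956 genes. Cluster 11 was shallower, with medians of 11086 UMIs and 3258 genes, and the non-basal cells were deeper, with medians of 24661 UMIs and 4966 genes. The median mitochondrial share of UMIs was 6.54% in cluster 8, 6.56% in cluster 11 and 11.6% in the non-basal cells. The libraries shared 180 cell barcodes, 1 of them in cluster 8. Levels below are UMIs of a gene summed within a group and scaled so that every group has the same total, given as the usual CPM. With 1 library there is no replicate of a cluster, the clustering itself used these genes, and every difference between clusters is a description. Brackets give 95% intervals for counting error only.

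Cluster 8 carried the defining basal markers in nearly every cell. Krt14, the type I keratin of basal cells (chr11:100203162-100207548, mm10), stood at 3858 CPM in cluster 8 [3811 to 3905], 3047 CPM in cluster 11 [2994 to 3102] and 7.73 CPM in the non-basal cells. Trp63, which encodes p63 (chr16:25683763-25892102), stood at 203 CPM in cluster 8 [192 to 214], 302 CPM in cluster 11 [285 to 320] and 0.616 CPM in the non-basal cells. For the other markers in the same order, Krt5, the partner of Krt14, was at 1808, 1611 and 75.7 CPM, and Krt15, a keratin of resting basal cells, at 2882, 2355 and 8.72 CPM. Ly6d, a surface protein of squamous epithelium, was at 2111, 1596 and 7.19 CPM, and Col17a1, the hemidesmosomal collagen, at 299, 374 and 1.45 CPM. Both basal clusters stood far above the non-basal cells for all 6 markers, which for Krt14 and Trp63 the selection of the non-basal cells had set. The other markers are not free of that selection, because cells of both basal clusters were left out of the non-basal group whether or not they met the rule. Between the basal clusters none of the 6 differed by 2-fold. The ratio of cluster 8 to cluster 11 ran from 0.67 [0.62 to 0.72] for Trp63 to 1.32 [1.28 to 1.36] for Ly6d.

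After each cell was thinned to 3000 UMIs, Krt14 was detected in 99.1% of cluster 8 cells [97.5 to 99.8], 98.8% of cluster 11 cells [96.6 to 99.8] and 1.93% of non-basal cells [1.55 to 2.38]. Mesothelial cells of the same library, which should not express Krt14, showed it in 3.04% [2.52 to 3.64], and the non-basal share was not above this background. Krt5 was above it in non-basal cells, at 11.1% [10.2 to 12.1] against 2.22% of mesothelial cells [1.78 to 2.74]. Trp63 was detected in 47.7% of thinned cluster 8 cells [42.4 to 53.1] and 59.2% of cluster 11 cells [52.9 to 65.3], against 0.106% of mesothelial cells. At full depth every cell of cluster 8 had a Krt14 UMI and 34 had none of Trp63. The unthinned Trp63 shares were 90.3% and 93.0%. More than 1 UMI of both genes was present in 263 cells of cluster 8 (74.9%), 209 of cluster 11 (81.3%), and in 3 of the non-basal cells, from which the authors had removed cells by this rule.

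Markers of other cell types were low. Dpt and Pdgfra, which define stromal fibroblasts, and Cdh5, which defines endothelium, were at 0 in cluster 8. Ptprc, the pan-leukocyte marker, was at 1.33 CPM. The summed level of the 9 stromal markers was 182 CPM in cluster 8, 246 CPM in cluster 11 and 131 CPM in the non-basal cells, most of it Dcn. The 7 immune markers summed to 59.9, 58.9 and 215 CPM in that order, the 7 mesothelial markers to 40.3, 48.3 and 32.6 CPM and the 4 endothelial markers to 1.19, 0.742 and 1.67 CPM. These levels were alike in the basal clusters.

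The adhesion genes of a basal cell at 20 CPM or more, like most genes, differed by less than 2-fold between clusters 8 and 11. Among hemidesmosome and basement membrane genes, 15 of 22 reached 20 CPM in either cluster and none differed by 2-fold, beside 2.71% of all 6047 such genes that were at least 2-fold higher in cluster 8 and 0.777% that were at least 2-fold lower. The median log2 ratio of these 15 was -0.22, and that of all 6047 was -0.13. The largest difference was that of Hspg2, which encodes perlecan, at 21.3 CPM in cluster 8 and 34.1 CPM in cluster 11. Among desmosome genes 8 of 10 reached 20 CPM and none differed by 2-fold, with a median of -0.09. Dsg3, the basal desmoglein, stood at 20.2 and 23.3 CPM in clusters 8 and 11 and at 0.122 CPM in the non-basal cells.

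Immediate early genes were among those with the largest ratios of cluster 8 to cluster 11. At 50 CPM or more in either cluster, 102 of 2912 genes (3.5%) were at least 2-fold higher in cluster 8 and 16 (0.549%) at least 2-fold lower. Among the 102 were all 18 genes of the immediate early and heat shock list. Among the 15 with the largest ratios was Nr4a1, an orphan nuclear receptor induced by many stimuli (chr15:101254269-101274795), at 230 CPM against 1.98 CPM, a ratio of 116 [58.9 to 270] that rests on 8 UMIs in cluster 11. Atf3, a stress-induced factor that dimerizes with Jun (chr1:191170296-191218039), stood at 1979 CPM [1946 to 2013] against 35.4 CPM [29.8 to 41.7], a ratio of 55.9 [47.4 to 66.4]. Fos (chr12:85473890-85477273) stood at 2814 CPM against 123 CPM, a ratio of 22.9 [21.0 to 25.1], and its relative Fosb at 482 against 13.1 CPM. The zinc finger factor Egr1 stood at 970 against 33.2 CPM, and the anti-apoptotic Ier3 at 1778 against 60.9 CPM. The feedback inhibitors followed the same order, with Zfp36, which destabilizes cytokine mRNA, at 1070 against 33.4 CPM, and the phosphatases Dusp1 at 360 against 15.3 CPM and Dusp5 at 85.1 against 1.48 CPM. Pmaip1, a proapoptotic gene, was at 50.4 against 1.73 CPM, and Csrnp1, a nuclear factor, at 65.8 against 2.97 CPM.

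**Figure D1:**
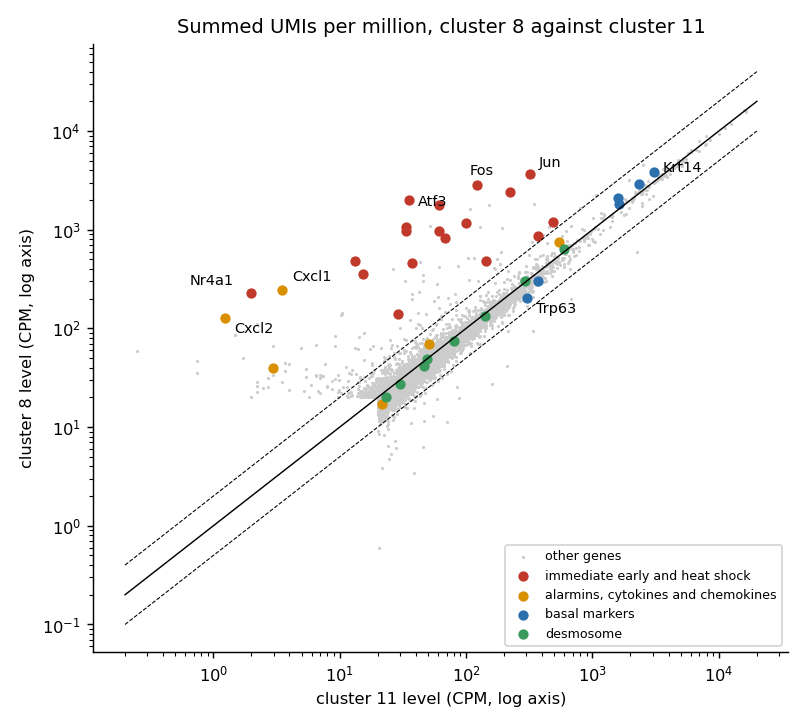
Summed level of each gene in cluster 8 (vertical log axis, CPM) against cluster 11 (horizontal log axis, CPM), for genes with at least 20 CPM in either cluster and a UMI in both, with equality as a solid line and 2-fold ratios as dashed lines. Basal markers and desmosome genes lie within the dashed lines, and the 18 immediate early and heat shock genes lie above the upper one.

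All 18 genes of the immediate early and heat shock list were at least 2-fold higher in cluster 8 than in cluster 11, with a median log2 ratio of 3.80 beside -0.13 over all genes at 20 CPM or more. The smallest ratios of the list were log2 1.24 for Hspa1b, an inducible Hsp70, and log2 1.29 for Jund, the Jun member that cells express constantly. The whole list held 2.18% of the UMIs of cluster 8, 0.216% of those of cluster 11 and 0.160% of those of the non-basal cells. The difference was spread over the cluster. Fos was present in 345 cells of cluster 8 and Jun in 347, and the 5 cells with the most UMIs held only 5.11% of the Fos UMIs. After thinning, Fos was detected in 95.7% of cluster 8 cells [93.0 to 97.6] and 22.4% of cluster 11 cells. The corresponding shares for Atf3 were 88.3% [84.4 to 91.5] and 7.06% [4.24 to 10.9], and for Nr4a1 they were 140 of 350 cells [34.8% to 45.3%] and 1 of 255 [0.00993% to 2.17%].

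Per cell, the list took 0.0231% to 4.52% of UMIs in cluster 8, with a median of 2.21% and the middle 90% of cells between 0.939% and 3.50%. In cluster 11 it took 0.0340% to 1.43%, with a median of 0.151%. The ranges overlapped, and that of cluster 11 lay within that of cluster 8. Above 1% were 329 of 351 cells of cluster 8 (93.7%) [90.7 to 96.0] and 9 of 257 of cluster 11 (3.50%) [1.61 to 6.54]. The share did not follow depth closely within cluster 8, with a Spearman correlation with total UMIs of 0.12 over 351 cells of 1 library. Its correlation with the per-cell level was 0.44 for Icam1, 0.44 for Hes1, 0.43 for Cxcl1, 0.27 for Krt14 and -0.13 for Trp63, each of which shares its denominator with the list.

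**Figure D2:**
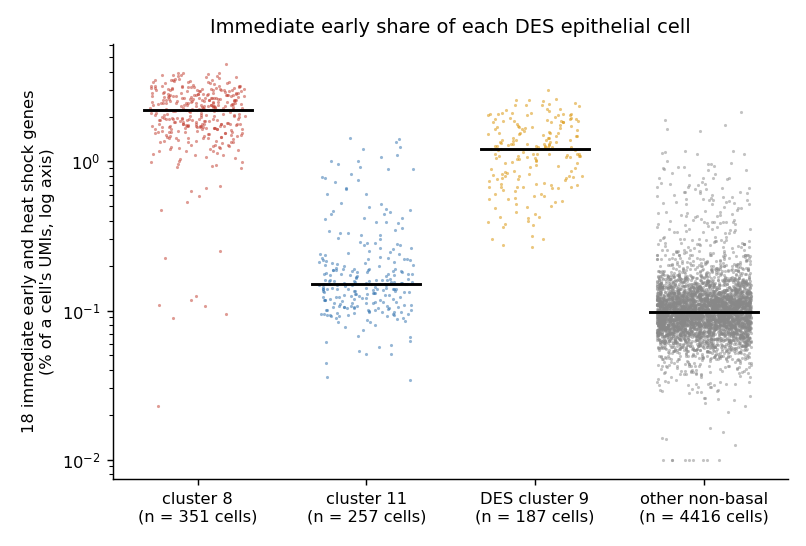
Share of each cell's UMIs (vertical log axis, %) taken by the 18 immediate early and heat shock genes in cluster 8, cluster 11, DES cluster 9 and the other non-basal cells. Each point is a cell, cells under 0.01% are drawn there, and black lines mark the medians of 2.21%, 0.151%, 1.22% and 0.0977%.

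The same genes were high in 1 group of non-basal cells. Of the 16 clusters of non-basal DES epithelium, DES cluster 9 (187 cells) had a median list share of 1.22% per cell, and the medians of the 15 others lay between 0.0833% and 0.113%. DES cluster 9 was chosen for this comparison after its values were seen. Fos stood at 2523 CPM in DES cluster 9 and 67.7 CPM in the other 4416 non-basal cells, Egr1 at 540 against 11.5 CPM and Atf3 at 405 against 7.03 CPM. All but Myc of the 18 list genes were at least 2-fold higher in DES cluster 9, beside 2.34% of all 6021 genes at 20 CPM or more that were higher there and 0.548% that were lower. Of the 102 genes that were 2-fold higher in cluster 8 than in cluster 11, 76 reached 50 CPM in the second comparison and 57 of them were at least 2-fold higher in DES cluster 9, beside 2.69% of all 2899 genes compared there (0.483% were 2-fold lower). The 102 include the 18 list genes, whose share was seen before DES cluster 9 was chosen, and a gene could reach 50 CPM in DES cluster 9 alone. These counts were therefore in part fixed by that choice. The 2 comparisons share no cells but come from 1 library. Outside the epithelium, the median share was 1.44% in cells annotated as myeloid, 0.271% in a separate group of myeloid cells with high Lyz2, 0.532% in lymphocytes and 0.117% in mesothelial cells.

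**Figure D3:**
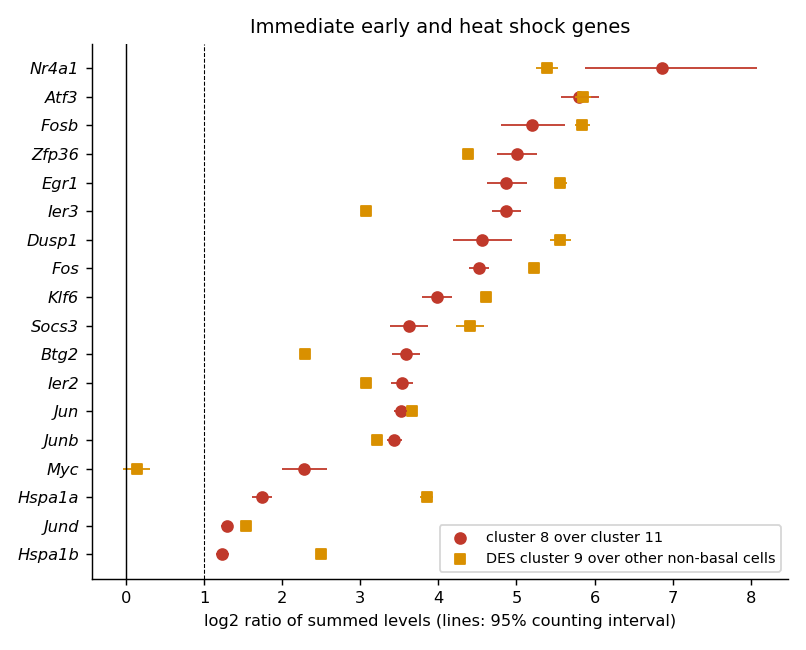
Log2 ratio (horizontal axis) of the summed level in cluster 8 to that in cluster 11 (circles) and in DES cluster 9 to that in the other non-basal cells (squares) for each of the 18 immediate early and heat shock genes, with lines for the 95% counting interval. All circles lie to the right of the dashed 2-fold line, and of the squares only that of Myc, at 0.14, does not.

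Some chemokine genes also stood higher in cluster 8 than in cluster 11. Cxcl1, a neutrophil chemokine (chr5:90891241-90893115), stood at 243 against 3.46 CPM, its neighbor Cxcl2 (chr5:90903871-90905938) at 127 against 1.24 CPM and the interferon-induced chemokine Cxcl10 at 111 against 2.23 CPM. In the list of alarmins, cytokines and chemokines 4 of the 7 members at 20 CPM or more were at least 2-fold higher and none was 2-fold lower, beside 2.71% and 0.777% of all genes at 20 CPM or more. These were Cxcl1, Cxcl2, the chemokine Ccl20 and the cytokine Il1b, which reached 20 CPM in cluster 8 alone. The filter thus took them in through the cluster where they were high. They were not spread evenly. Cxcl1 had a UMI in 177 cells of cluster 8, with 17.1% of its UMIs in 5 cells, whereas 41.3% of Cxcl2 UMIs, 36.1% of Cxcl10 UMIs, 84.9% of Ccl20 UMIs and 94.8% of Il1b UMIs were in 5 cells each. Il33, an alarmin of barrier epithelium, was at 759 CPM in cluster 8 and 544 CPM in cluster 11, against 118 CPM in the non-basal cells. Icam1, the adhesion molecule that binds leukocyte integrins (chr9:21015985-21028817), stood at 422, 60.9 and 5.64 CPM, and Socs3, the inhibitor of cytokine receptors, at 463, 37.6 and 6.32 CPM.

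Hes1, a repressor that is best known as a Notch target but is induced by other stimuli too (chr16:30064384-30067796), stood at 1777 CPM in cluster 8 [1745 to 1809] and 150 CPM in cluster 11 [139 to 163]. It was detected in 94.6% of thinned cluster 8 cells [91.7 to 96.7] and 32.5% of cluster 11 cells [26.8 to 38.7]. It was the only one of 7 Notch pathway genes at 20 CPM or more that differed by 2-fold. For this and the next 2 lists, the shares over all genes were again 2.71% higher and 0.777% lower. The ligands Jag2, at 75.4 and 81.7 CPM, and Dll1, at 33.2 and 28.5 CPM, were alike in the basal clusters and near 0 in the non-basal cells (0.628 and 0.104 CPM). Of the growth factor genes, 1 of 16 was 2-fold higher in cluster 8, the epidermal growth factor receptor ligand Hbegf at 82.2 against 14.1 CPM, and 1 was 2-fold lower, the receptor Fgfr3 at 29.6 against 59.6 CPM. Hbegf reached 20 CPM in cluster 8 alone, the cluster where it was high. None of 11 Wnt pathway genes differed by 2-fold. Their largest difference was that of Sfrp1, a secreted Wnt antagonist, at 69.4 against 129 CPM. Id1 and Id3, inhibitors of helix-loop-helix factors and targets of BMP signaling, were at 591 against 190 CPM and 414 against 165 CPM. These genes were also frequent in DES cluster 9. After thinning, Hes1 was detected in 86.1% of its cells against 35.8% of all non-basal cells. Shares in cluster 8 and DES cluster 9 were 12.3% and 29.9% for Hbegf, 66.0% and 55.1% for Id1, and 50.6% and 41.2% for Id3.

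The genes that came closest to being particular to cluster 8 were found by comparing its level with the highest of cluster 11 and the 16 DES clusters. Hcar2, a receptor for hydroxybutyrate and nicotinate (chr5:123863570-123865499), led them at 138 CPM against 10.1 CPM in cluster 11 and 8.20 CPM in DES cluster 9, the highest non-basal cluster. It was detected in 26.3% of thinned cluster 8 cells [21.7 to 31.2], 0.784% of cluster 11 cells [0.0951 to 2.80] and 0.0793% of mesothelial cells. Adm, which encodes the vasodilator peptide adrenomedullin, stood at 302, 45.3 and 24.5 CPM in cluster 8, cluster 11 and DES cluster 9, and Phlda1, an immediate early gene of the pleckstrin homology family, at 1039, 193 and 200 CPM. The others of the 10 were Cxcl1, Cxcl2, Cxcl10, Icam1, Socs3, Atf3 and 1 transcript known only by a clone name. The ranking covers epithelial clusters alone. In mesothelial cells that last transcript was detected in 25.6% of thinned cells against 26.9% of cluster 8, Icam1 in 18.01% against 56.6%, Cxcl10 in 7.35% against 11.1% and Cxcl1 in 1.16% against 25.7%.

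Promoter windows of the 102 genes higher in cluster 8 than in cluster 11 were taken from RefSeq (GRCm38.p6), which held 103 windows for 75 of the genes, and the 250 bases before each start were searched on both strands. Promoters are shown because the genes were all higher in cluster 8. A kappaB motif, the element bound by NF-kB, with any base at 2 inner positions, was in 8 windows (7.77%) of 7 genes, 2 of them overlapping Casp4 windows with the same matches, beside 1.41% of all 32851 windows, and the cyclic AMP response element TGACGTCA was in 7 windows (6.80%), beside 1.55%. The AP-1 motif TGANTCA was in 6.80% of them and in 6.75% of all windows, and the CArG box, bound by serum response factor, in 2.91% and 1.47%. These are matches of letters and were not measured as binding sites. The 130 bases before the start of Cxcl1 (chr5:90891115-90891244, plus strand), Cxcl2 (chr5:90903769-90903898, plus strand) and Nfkbia, which encodes an inhibitor of NF-kB (chr12:55492648-55492777, minus strand), are printed first, with matches to the kappaB motif on either strand in capitals. Those of Plk2, a stress-induced kinase (chr13:110394914-110395043, plus strand), and Errfi1, an inhibitor of epidermal growth factor receptors (chr4:150854940-150855069, plus strand), follow, with TGACGTCA in capitals.
Cxcl1: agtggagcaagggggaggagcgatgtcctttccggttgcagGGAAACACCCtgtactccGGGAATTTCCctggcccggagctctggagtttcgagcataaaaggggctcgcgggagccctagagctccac
Cxcl2: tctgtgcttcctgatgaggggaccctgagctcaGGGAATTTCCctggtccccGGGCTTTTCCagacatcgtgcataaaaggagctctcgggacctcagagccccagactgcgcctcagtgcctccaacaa
Nfkbia: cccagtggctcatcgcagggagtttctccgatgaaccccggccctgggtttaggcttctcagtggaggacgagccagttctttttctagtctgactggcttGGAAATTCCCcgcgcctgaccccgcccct
Plk2: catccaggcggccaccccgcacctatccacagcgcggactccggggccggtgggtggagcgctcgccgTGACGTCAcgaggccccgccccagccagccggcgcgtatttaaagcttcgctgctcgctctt
Errfi1: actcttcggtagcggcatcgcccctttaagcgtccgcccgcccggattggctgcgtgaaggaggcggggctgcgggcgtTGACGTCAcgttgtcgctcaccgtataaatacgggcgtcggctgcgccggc
The adjacent chemokine genes Cxcl1 and Cxcl2 each held 2 matches, between 71 and 97 bases before their RefSeq starts. Gene positions given elsewhere are from the GENCODE annotation, whose starts of these 2 genes lie inside the printed windows. Nfkbia stood at 1811 CPM in cluster 8 and 344 CPM in cluster 11, Plk2 at 142 and 10.4 CPM and Errfi1 at 208 and 59.9 CPM. These 5 genes were chosen for print after their matches were seen.

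The lists of squamous, interferon, protease, redox, contractile, steroid and gland genes each held at most 3 genes that differed by 2-fold between the basal clusters. The shares over all genes at 20 CPM or more, 2.71% higher and 0.777% lower, stand beside each of the following counts. Of 9 suprabasal and squamous differentiation genes at 20 CPM or more, 2 were at least 2-fold higher in cluster 8, Krt16 and the factor Klf4, a regulator of barrier formation (445 against 185 CPM), and none was 2-fold lower. Krt16 reached 20 CPM in cluster 8 alone, the cluster where it was high. Krt10, the keratin of the spinous layer, was at 19.9 and 31.4 CPM. Of 12 basal and squamous transcription factors, Id1 and Id3 were 2-fold higher and 1 was 2-fold lower, Pitx1.

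Of 10 antigen presentation and interferon genes, 2 were at least 2-fold higher in cluster 8, the interferon response factor Irf1 (221 against 37.6 CPM) and the interferon-induced Ifit1 (52.6 against 24.5 CPM). The class I gene H2-K1 stood at 694 and 926 CPM and its light chain B2m at 554 and 741 CPM. Of 10 protease and inhibitor genes, 2 were higher, the urokinase gene Plau (33.0 against 7.42 CPM) and Adamts1 (34.7 against 13.4 CPM). Both reached 20 CPM in cluster 8 alone, so that the filter took them in through the cluster where they were high. Of the Adamts1 UMIs in cluster 8, 29.5% were in 5 cells. Of 14 glutathione and redox genes 1 was higher, the aldehyde dehydrogenase gene Aldh3a1 at 162 CPM in cluster 8, 61.1 CPM in cluster 11 and 1.44 CPM in the non-basal cells. None of 6 contractile genes and none of 8 steroid receptor and estrogen target genes differed by 2-fold. The progesterone receptor Pgr stood at 53.9 and 74.5 CPM. In the list of uterine gland and DES luminal genes, 1 of 3 was 2-fold higher, Olfm4, and 1 was 2-fold lower, Prap1.

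Few genes were lower in cluster 8 than in cluster 11. Apoc1, an apolipoprotein, stood at 11.3 against 71.3 CPM, a ratio of 0.16 [0.12 to 0.20]. The small proline-rich protein gene Sprr2a3 stood at 27.6 against 160 CPM, the noncoding RNA Yam1 at 41.2 against 212 CPM and the noncoding RNA Snhg20 at 19.7 against 88.1 CPM. Cd200, a surface protein that dampens myeloid cells, stood at 12.9 against 55.2 CPM, and Dlk2, a relative of the Notch ligands, at 25.6 against 85.1 CPM. Dlk2 was at 0.0976 CPM in the non-basal cells, whereas Prap1, a secreted product of estrogen-responsive uterine epithelium, stood at 200, 678 and 2472 CPM in clusters 8 and 11 and the non-basal cells. Few cells carried the Prap1 levels. Of its UMIs in cluster 8, 63.2% were in 5 cells, and 1 cell of cluster 11 held 685 of the 2738 there. The median was 1 UMI per cell in both clusters, and after thinning Prap1 was detected in 77 of 350 cells [17.8% to 26.7%] and 66 of 255 cells [20.6% to 31.7%], with overlapping intervals. Sprr2a3 was also unevenly spread. In cluster 8, 5 cells held 46.2% of its UMIs, and 1 cell of cluster 11 held 149 of the 647 there. After thinning, 21 of 350 cells of cluster 8 had it [3.75% to 9.03%], against 30 of 255 of cluster 11 [8.08% to 16.4%]. These intervals overlap as well. Pitx1, a homeobox factor, was found in only 4 cells of cluster 8 (0.593 CPM) and in 44 of cluster 11 (20.3 CPM).

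Proliferating cells were a small part of cluster 8. The summed level of 29 cell cycle genes was 589 CPM in cluster 8, 202 CPM in cluster 11 and 611 CPM in the non-basal cells. Of 10 such genes at 20 CPM or more, 7 were at least 2-fold higher in cluster 8 than in cluster 11, beside 2.71% of all genes. Top2a, the topoisomerase of dividing cells, stood at 28.7 against 2.23 CPM and the ubiquitin-conjugating enzyme Ube2c at 62.8 against 4.95 CPM, with 51.0% and 69.1% of their UMIs in 5 cells of cluster 8. Both reached 20 CPM in cluster 8 alone, so that the filter took them in through the cluster where they were high. After thinning, 16 of 350 cells of cluster 8 (4.57%) [2.64 to 7.32] had 3 or more UMIs of 16 G2/M genes, against 0 of 255 cells of cluster 11. A count of 0 there allows a share of up to 1.18%. In non-basal cells the share was 5.07% [4.45 to 5.75]. Without the cells that had 10 or more UMIs of these genes at full depth, the median log2 ratio of the cell cycle list was -0.12 in place of 3.27, beside -0.13 over all genes. The choice of cells by these genes fixes that drop. The median of the immediate early list was 3.82 without those cells.

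Several genes varied widely between the cells of cluster 8. Among 701 genes with a mean of at least 0.5 UMI after thinning, the median ratio of variance to mean was 1.12. Of the named genes, the highest ratios were those of the nuclear noncoding RNA Malat1 (13.4), Olfm4 (8.72), the protease inhibitor gene Spink12 (8.68), Apoe (5.20), Sprr2f (5.06) and Sprr1a (4.89). Olfm4, a secreted glycoprotein associated with the adenocarcinoma of DES-exposed uteri, stood at 310 CPM in cluster 8, 105 CPM in cluster 11 and 58.6 CPM in the non-basal cells. It had UMIs in 140 cells of cluster 8, with 38.1% of them in 5 cells, and reached 685 CPM in DES cluster 5. Krt17, a keratin of activated and stratified epithelium, was more even, with UMIs in 315 cells and levels of 1102, 681 and 2.49 CPM in clusters 8 and 11 and the non-basal cells. Krt16, its relative in stressed epidermis, was at 26.7 and 5.94 CPM with UMIs in 35 cells of cluster 8 and 3 of cluster 11.

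Against the non-basal cells cluster 8 differed widely, as cluster 11 did. At 50 CPM or more, 370 of 3102 genes (11.9%) were at least 2-fold higher in cluster 8 and 326 (10.5%) at least 2-fold lower. Beside the basal markers, the largest ratios were those of Trim29, a partner of p63 in squamous cells (142 against 0.293 CPM), Krt17, Dapl1, an early marker of epithelial differentiation (84.6 against 0.220 CPM), the homeobox gene Prrx1 (138 against 0.488 CPM) and Snai2, a repressor kept in basal keratinocytes (60.0 against 0.293 CPM). In cluster 11 these stood at 128, 681, 57.9, 120 and 72.5 CPM in the same order. Among the genes with the 10 smallest ratios, Clca1, a secreted protein of mucous cells, stood at 105 against 1705 CPM, the protease inhibitor gene Serpina1c at 24.9 against 373 CPM, the surface protein gene Lypd8 at 6.08 against 156 CPM and Hmga2, a chromatin protein, at 5.78 against 97.5 CPM. Of 12 simple epithelium genes, 6 were at least 2-fold lower in cluster 8 than in the non-basal cells and 2 at least 2-fold higher, beside 9.59% and 11% of all 6360 genes at 20 CPM or more. Those lower included Krt19 (138 against 663 CPM) and Cldn3 (42.7 against 365 CPM), and those higher were Krt7 (742 against 330 CPM) and Cldn4, a tight junction protein (430 against 50.1 CPM). Cldn4 was also 5.00-fold [4.47 to 5.61] higher in cluster 8 than in cluster 11. Esr1, the estrogen receptor, was at 184 CPM in cluster 8, 208 CPM in cluster 11 and 218 CPM in the non-basal cells.

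The frozen sections did not enter the clustering and were compared with a test. According to the paper, a pathologist first checked sections for luminal and glandular epithelium, and DES sections also for uterine adenocarcinoma. Mice were selected after that, and their blocks were cored to the areas of interest. Levels in the DES sections are thus those of selected tissue and not of DES uteri at large. The paper describes a substantial tissue fold in the second CO section and limited cluster identification in the second DES section. It used 1 section per group for most of its analyses, whereas both of each group enter the test here. Summed over all spots, Krt14 was at 1.68 and 59.7 CPM in the CO sections and 4175 and 2019 CPM in the DES sections. Krt5 was at 0.800 and 93.4 CPM in CO and 5276 and 3562 CPM in DES, and Trp63 at 0.880 and 6.53 CPM in CO and 75.7 and 63.6 CPM in DES. For all 6 basal markers both DES sections stood above both CO sections, with the CO sections far apart. In edgeR's quasi-likelihood test, 376 of 14098 genes (2.67%) were higher in DES sections and 371 (2.63%) lower at an adjusted p under 0.05. None of the 6 markers passed, with edgeR adjusted p from 0.062 for Trp63 (log2 difference 4.05 ± 0.81, SE) to 0.18 for Krt15 (4.66 ± 1.68), and 6 of 6 at an unadjusted p under 0.05. Krt15 was at 0.720 and 56.6 CPM in CO and 804 and 842 CPM in DES sections. Its log2 difference was 3.68 without the first CO section and 9.91 without the second. One spot cluster of 17 spots in the second CO section carried the 6 markers at a summed 9025 CPM. The other spot clusters of that section stood at 8.70 to 179 CPM, against at most 9.61 CPM in the first CO section. Without the 17 spots, a choice made after their level was seen, 4 of the 6 rose in edgeR's test (Krt14, Trp63, Ly6d and Col17a1), and 5 rose in DESeq2 with all spots. Without either CO section all 6 rose in edgeR's test, and without either DES section neither these nor any gene named below as having risen or fallen passed. A fit without 1 section takes its spread only from the group that keeps both its sections. Whether a gene passed thus depended on which pair was left, and such fits cannot decide whether a difference holds. In bulk samples, more cells of a type and more RNA per cell cannot be told apart. Markers of other cell types differed between the same sections. Of 15 contractile and mesenchymal genes, most of them smooth muscle genes, 10 fell and 1 rose, and the list summed to 21962 and 23505 CPM in CO and 6781 and 7022 CPM in DES sections. Of 9 stromal markers 3 fell, Col3a1, Dcn and Lum, and the list summed to 6282 and 7873 CPM in CO and 4369 and 2839 CPM in DES. The 7 immune markers summed to 354 and 681 CPM in CO and 2258 and 1217 CPM in DES. Their part in the differences below was not tested.

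Of 61 genes that were at least 8-fold above the non-basal cells in both basal clusters and at 50 CPM or more in each, 17 rose and 3 fell in DES sections in edgeR's test, beside 2.67% and 2.63% of all genes. Krt17 was at 7.76 and 8.61 CPM in CO and 86.3 and 83.5 CPM in DES sections (log2 3.17 ± 0.17, SE, edgeR adjusted p = 0.014). Dapl1, at 0.400 and 3.72 CPM in CO and 146 and 99.9 CPM in DES sections, rose by log2 5.72 ± 0.86 (edgeR adjusted p = 0.036). Its log2 difference was 4.85 without the first CO section and 7.99 without the second. Jag2, the Notch ligand, was at 4.08 and 7.61 CPM in CO and 103 and 80.9 CPM in DES (log2 3.78 ± 0.34, edgeR adjusted p = 0.021). Sprr1a, a precursor of the cornified envelope, was at 121 and 88.7 CPM in CO and 1409 and 1000.1 CPM in DES (edgeR adjusted p = 0.021). All these DES sections stood above both CO sections. Prrx1, high in both basal clusters, was at 57.9 and 51.3 CPM in CO and 61.6 and 65.5 CPM in DES sections and did not pass.

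The immediate early genes of cluster 8 were compared in the same sections, without a test of them against the basal genes. Fos was at 60.9 and 10.2 CPM in the CO sections and 19.9 and 16.9 CPM in the DES sections, and Atf3 at 15.3 and 16.04 CPM in CO and 13.4 and 15.8 CPM in DES. Jun was at 87.0 and 78.1 CPM in CO and 97.2 and 66.7 CPM in DES. The groups overlapped for all 3. Of the 17 list genes tested, Junb rose (45.9 and 48.0 CPM in CO, 126 and 113 CPM in DES, edgeR adjusted p = 0.031) and Ier3 fell (327 and 246 CPM in CO, 85.7 and 72.1 CPM in DES, edgeR adjusted p = 0.022). Of the 102 genes higher in cluster 8 than in cluster 11, 98 could be tested, and 8 rose and 2 fell, where 2.67% and 2.63% of all genes did. Among those that rose were Hes1 (67.7 and 60.1 CPM in CO, 220 and 226 CPM in DES, edgeR adjusted p = 0.022), Icam1 (21.2 and 18.3 CPM in CO, 64.3 and 53.1 CPM in DES, edgeR adjusted p = 0.031), Cldn4 (18.6 and 34.9 CPM in CO, 163 and 116 CPM in DES, edgeR adjusted p = 0.040) and Olfm4 (0.400 and 2.18 CPM in CO, 1534 and 1340 CPM in DES, edgeR adjusted p = 0.018). Of the 16 genes lower in cluster 8 than in cluster 11, 2 rose and none fell. Fgfr3 was at 2.96 and 3.63 CPM in CO and 52.7 and 47.5 CPM in DES (edgeR adjusted p = 0.014), and Apoc1 at 2.08 and 5.44 CPM in CO and 60.4 and 30.8 CPM in DES (edgeR adjusted p = 0.042). Pitx1, near 0 in cluster 8, was at 0.0800 and 1.18 CPM in CO and 47.4 and 18.9 CPM in DES sections and rose as well (edgeR adjusted p = 0.045). Of the alarmin list 1 of 16 genes tested rose, Il33, from 25.3 and 23.6 CPM in CO to 300.1 and 297 CPM in DES (edgeR adjusted p = 0.014). In the hemidesmosome list 4 of 22 rose, among them Itgb4, the integrin of hemidesmosomes (65.1 and 51.1 CPM in CO, 216 and 199 CPM in DES), and 4 fell, the basement membrane genes Lamb1, Lamc1, Col4a1 and Col4a2. In the suprabasal list 9 of 25 rose and none fell, and in the cell cycle list none of 28 passed.

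**Figure D4:**
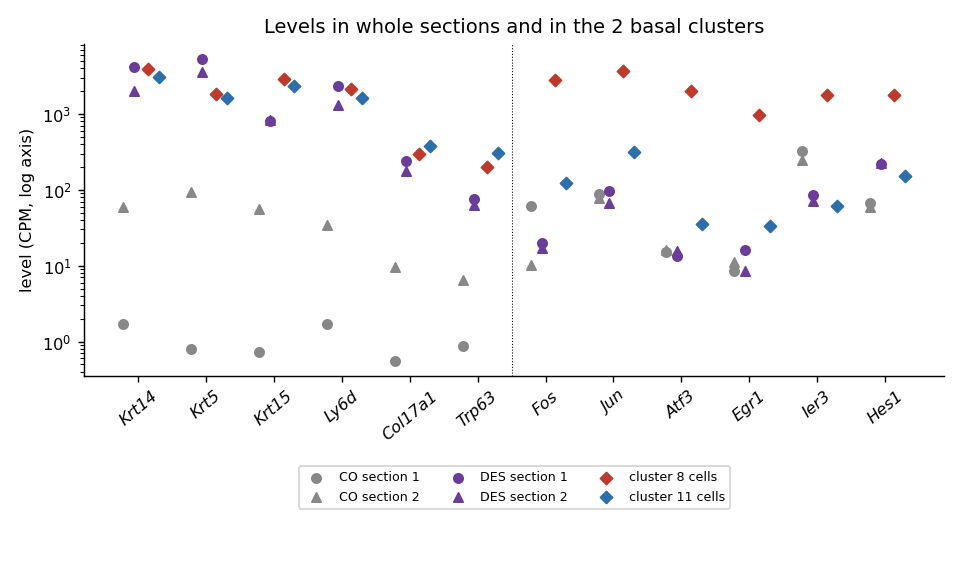
Level (vertical log axis, CPM) of 6 basal markers and 6 genes that were high in cluster 8 in each CO and DES section (grey and purple, circles for section 1 and triangles for section 2) and in the cells of clusters 8 and 11 (red and blue diamonds). Krt14 in DES sections lies at 4175 and 2019 CPM, near the 3858 CPM of cluster 8, and Fos, Jun, Atf3, Egr1 and Ier3 in all 4 sections lie well under the level of cluster 8.

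In none of the 40 spot clusters of the sections, each an average over its spots, did the immediate early list reach the level of cluster 8. It took 0.0527% to 0.176% of UMIs in them, against 2.18% in cluster 8 and 0.216% in cluster 11. In the spot cluster of each DES section with the most basal marker RNA, 332 spots with a summed 20204 CPM of the 6 markers and 106 spots with 13173 CPM, the list took 0.158% and 0.167%. In cluster 8 itself the sum was 11161 CPM. Krt5 stood at 7879 and 5193 CPM in these spots against 1808 CPM in cluster 8, and Krt14 at 7030 and 3762 CPM against 3858 CPM. Over the whole DES sections Krt5 stood above cluster 8, and Krt14 and Ly6d did so in the first section only. Trp63 (75.7 and 63.6 CPM against 203 CPM), Krt15 and Col17a1 stood below cluster 8 in both. In the 2 spot clusters Fos was at 20.4 and 33.7 CPM and Atf3 at 10.7 and 12.1 CPM. The cells had been digested and the sections had not, the 2 methods capture RNA differently, and spots hold several cells. The part of the digestion in the difference between clusters 8 and 11, which were digested together, was not tested.

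**Figure D5:**
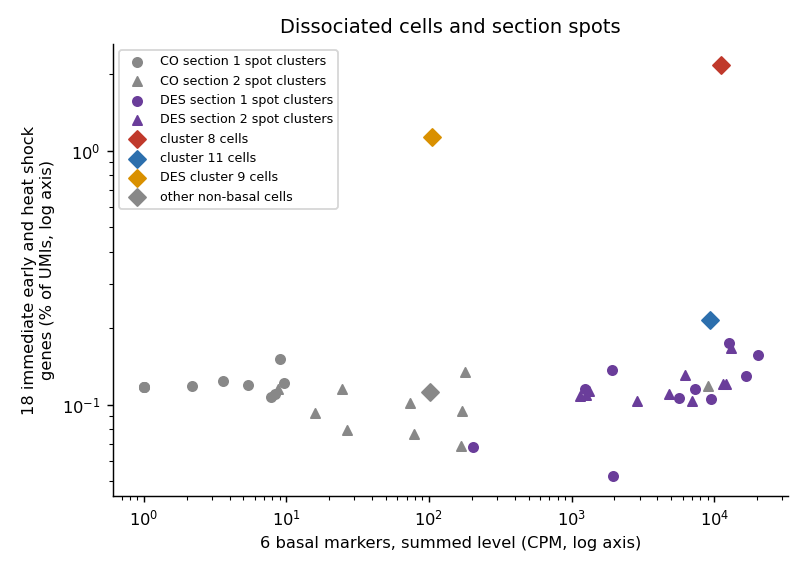
Share of UMIs (vertical log axis, %) of the 18 immediate early and heat shock genes against the summed level of the 6 basal markers (horizontal log axis, CPM, values under 1 drawn at 1) in the 40 spot clusters of the sections and in 4 groups of DES cells (diamonds). Spot clusters lie between 0.0527% and 0.176% at every basal marker level, and cluster 8 lies at 2.18%.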

How the data were processed

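The authors counted UMIs per gene with Cell Ranger 3.0.1 in single cells and Space Ranger 1.2.2 in sections, on mm10. They removed doublets with scran and clustered the cells, and the deposited counts are raw. They give a library, cell type and cluster number for each cell. The members, gene lists and tests here were chosen with earlier results of these data known.

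UMIs were summed per group and scaled to CPM. Ratios carry exact conditional binomial intervals, CPM exact Poisson intervals and shares exact Clopper-Pearson intervals, all at 95% and for counting error only. For a count of 0 a floor of 3 over the group was used. Cells were thinned to 3000 UMIs with a fixed seed, which left out 1 cell of cluster 8, 2 of cluster 11 and 49 non-basal cells. Genes were named by fixed rules: basal markers, the extreme ratios at 50 CPM or more, the most variable genes, and up to 4 members of each list at 20 CPM or more. A gene could reach these levels in 1 group alone, the one where it was high. Genes named by clone or mitochondrial genes were left unnamed. Il33, Itgb4, Jag2, Jun, Junb, Jund, Hspa1b, Myc, Krt7, Nfkbia, Plk2, Errfi1, the genes of counts of 5 or fewer and the markers of other cell types fall outside these rules and were chosen after their values were seen.

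Section counts (9117099 to 12506177 UMIs per section, median 4116 to 6656 UMIs per spot) were compared with edgeR 4.0.16 (TMM, filterByExpr, quasi-likelihood test, Benjamini-Hochberg over all genes tested), 2 CO against 2 DES, 1 mouse each. Standard errors were taken as the log2 difference over the root of F. The fits were also run on simulated counts that gave every gene the same spread between sections. For the basal markers the CO sections lay far apart, so that these runs do not test the fits for such genes. Alternatives are given in the closing section.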

Additional observations from a re-analysis of the deposited data

Results flagged for a closer look

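Cells with RNA of both Krt14 and Trp63 also lay outside both basal clusters. In the DES library 71 cells with over 1 UMI each of Krt14 and Trp63 belonged to neither cluster 8 nor cluster 11. Of these, 3 are among the non-basal cells, 4 among the mesothelial cells and 2 among the lymphocytes of the report, and the others drew notice because they enter none of its comparisons. The CO library had 0 such cells of 32387, a count that allows up to 0.00926%. Of the 71, 54 had no cell type in the annotation, 11 were annotated as epithelial, 4 as mesothelial and 2 as lymphocytes. Their immediate early and heat shock share ran from 0.0507% to 2.89% of UMIs per cell, with a median of 0.368%, and 20 of them lay above 1%. Doublets were removed upstream, and whether any of these are doublets was not tested.

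The second CO section held a patch of 17 spots, its spot cluster 10, with a summed 9025 CPM of the 6 basal markers, against 9.61 CPM in the highest spot cluster of the first CO section. Krt14 stood at 2288 CPM and Krt5 at 3580 CPM there, while Olfm4 was at 15.3 CPM, and the immediate early list took 0.118% of UMIs. They drew notice as basal marker signal within a control section. The paper describes a substantial tissue fold in this section, and its part in the signal was not tested. These spots are at the level of several DES spot clusters in basal marker RNA.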

How the results depend on the processing

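In the contrast of cluster 8 with cluster 11, the number of genes at least 2-fold higher lay between 94 and 112 in all alternatives but the filter at 20 CPM, which gave 164 higher and 47 lower. When each gene lost its 5 highest cells in either cluster, an alternative added after the data were seen, 10 genes were lower. Against the non-basal cells the filter at 20 CPM gave 702 higher and 610 lower. The median log2 ratio of the immediate early list to cluster 11 lay between 3.51 and 4.07. That of the cell cycle list crossed 0 to -0.12 without cycling cells, also added later. Those cells were chosen by genes of the list, and -0.12 is near the median of all genes (-0.13). For the sections, DESeq2 gave 798 genes higher and 940 lower. Leaving out 1 section gave 3 to 1311 higher and 0 to 1508 lower. The counts of 3 and 0 came without the second DES section and those of 14 and 0 without the first, with 1712 and 1722 genes at an unadjusted p under 0.05 in edgeR. Without the first or the second CO section all 6 basal markers passed, and without either DES section none did, nor did Hes1, Icam1, Cldn4, Junb, Ier3, Krt17, Olfm4, Dapl1, Fgfr3, Apoc1, Pitx1, Jag2, Sprr1a, Il33 or Itgb4. A fit without 1 section takes its spread only from the group that keeps both its sections, and the CO sections lay far apart for the basal markers. Whether a gene passed thus depended on which pair was left, and these fits cannot decide whether a difference holds. A lone section was assumed to vary like the others. Section numbers come from accession order and pair nothing. The replicate block gave 298 higher and 229 lower, under it Cldn4, Junb, Apoc1 and Pitx1 no longer passed (adjusted p = 0.057, 0.065, 0.060 and 0.061 in edgeR), and same-numbered sections had deviations that correlated at -0.03 over 14098 genes.

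One library holds each cluster, so that neither mice nor dissociation runs can be compared. Cluster 11 has a lower depth than cluster 8, and ratios of genes with few UMIs there have wide intervals.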
